A study of Mus musculus with 2 samples.

Results

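Ribosome biogenesis and transcription by RNA polymerase I were examined through 47 mouse genes, chosen by name and found by symbol in a table of raw counts for 19294 genes. All 47 genes were listed, and all had enough reads to enter the counts of genes given here, as did 17235 genes of the whole table. The genes were sorted by the step of ribosome assembly in which their proteins act, from transcription of ribosomal DNA to late maturation of the subunits, which gave 11 steps.

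Ribosomes are built in the nucleolus, where RNA polymerase I transcribes a long precursor that is cut and modified into the ribosomal RNAs. Small nucleolar RNAs (snoRNAs), bound to a fixed set of core proteins, guide methylation and pseudouridylation of the precursor, and large assemblies such as the small-subunit processome fold and cleave it. In the intestinal crypt, dividing cells make many ribosomes, and the program is known to be driven in large part by the transcription factor MYC.

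The libraries came from intestinal organoids, epithelial structures grown in Matrigel from crypts of the jejunum with EGF, Noggin and R-spondin. The donor mice carried the allele Lgr5-EGFP-IRES-creERT2, which places a fluorescent protein and an inducible recombinase under the stem cell gene Lgr5, in the control as well as in the treated culture. One culture was left as a control and the other received dextran sulfate sodium (DSS), a charged sugar polymer used to damage intestinal epithelium, and both were labelled Day 4. The age of the mice, the number of mice behind the cultures and the DSS concentration used for sequencing were not given in the sources used here.

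Stranded libraries of polyadenylated RNA gave 65493032 counts for the control and 59746968 counts for DSS. The labels name the cell type as intestinal stem cells, while the markers in the table were those of a mixed epithelium. The 9 epithelial markers searched were all listed, with log2 ratios (DSS over control, scaled as in the next paragraph) from -1.35 for Cdx2 to 1.25 for Vil1. Their median was 0.03 with 4 of 9 below 0, or -0.23 with 6 below 0 by total counts and 0.12 with 2 below 0 by upper quartile factors. Their summed counts, before scaling, were 466277 in the control and 533700 in DSS. Summed counts of 5 crypt base stem cell markers were 59576 and 7127, and those of 7 enterocyte markers 112045 and 1103236. Of 10 mesenchymal markers 5 were listed, with sums of 108 and 127 counts. Of 9 immune markers 3 were listed, with sums of 875 and 1273. Ptprc, the marker shared by white blood cells, was not listed. Genes with a count of 0 in either library are missing from the table, so a gene not listed may still have reads in 1 library. In bulk RNA of this kind, fewer cells of a type and less RNA per cell cannot be told apart.

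Each gene is reported by its counts in the control and in DSS and by the log2 ratio of the counts, DSS over control, after scaling with TMM (trimmed mean of M-values) factors of 1.09 and 0.915. A log2 ratio of -1 is a level 2-fold lower in DSS. The 95% intervals are exact and cover counting error only. With 1 library per condition there was no replicate check and no test, so every difference describes these 2 libraries. Scaling by total counts moved every gene by a further -0.26 on the log2 scale, so ratios are best read against the median of all genes, which was -0.06.

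Every member was lower after DSS. Ratios were below 0 for 47 of 47 members, against 52% of all genes, and their median was -1.78. A ratio of -1 or less was found for 38 members, against 20.2% of all genes, and a ratio of -2 or less for 16 members, against 6.54%. With total counts, 25 members were at -2 or less, against 8.83% of all genes. The remaining 9 members lay between 0 and -1. Ratios ran from -3.23 for Dkc1 to -0.29 for Bop1, and the counting intervals of all 47 members lay below 0. How many of all genes had such an interval was not counted, and the intervals leave out variation between cultures. No member was short of reads, since the lowest count was 200 and the widest interval spanned 0.45. Among genes with a mean of at least 1000 counts, 37 of 46 members were at -1 or less, against 15.1% of all such genes.

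Together the members took 335397 counts in the control and 79262 in DSS. This was 0.512% of the control library, with an exact interval from 0.510% to 0.514%, and 0.133% of the DSS library, from 0.132% to 0.134%. The summed level was lower by a log2 ratio of -1.69. Ncl and Npm1 alone held 37.6% of the members' counts in the control and 30.8% in DSS. Without Npm1, Ncl and Mybbp1a, the members with the most reads, the share was 0.293% in the control and 0.0883% in DSS.

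**Figure D1:**
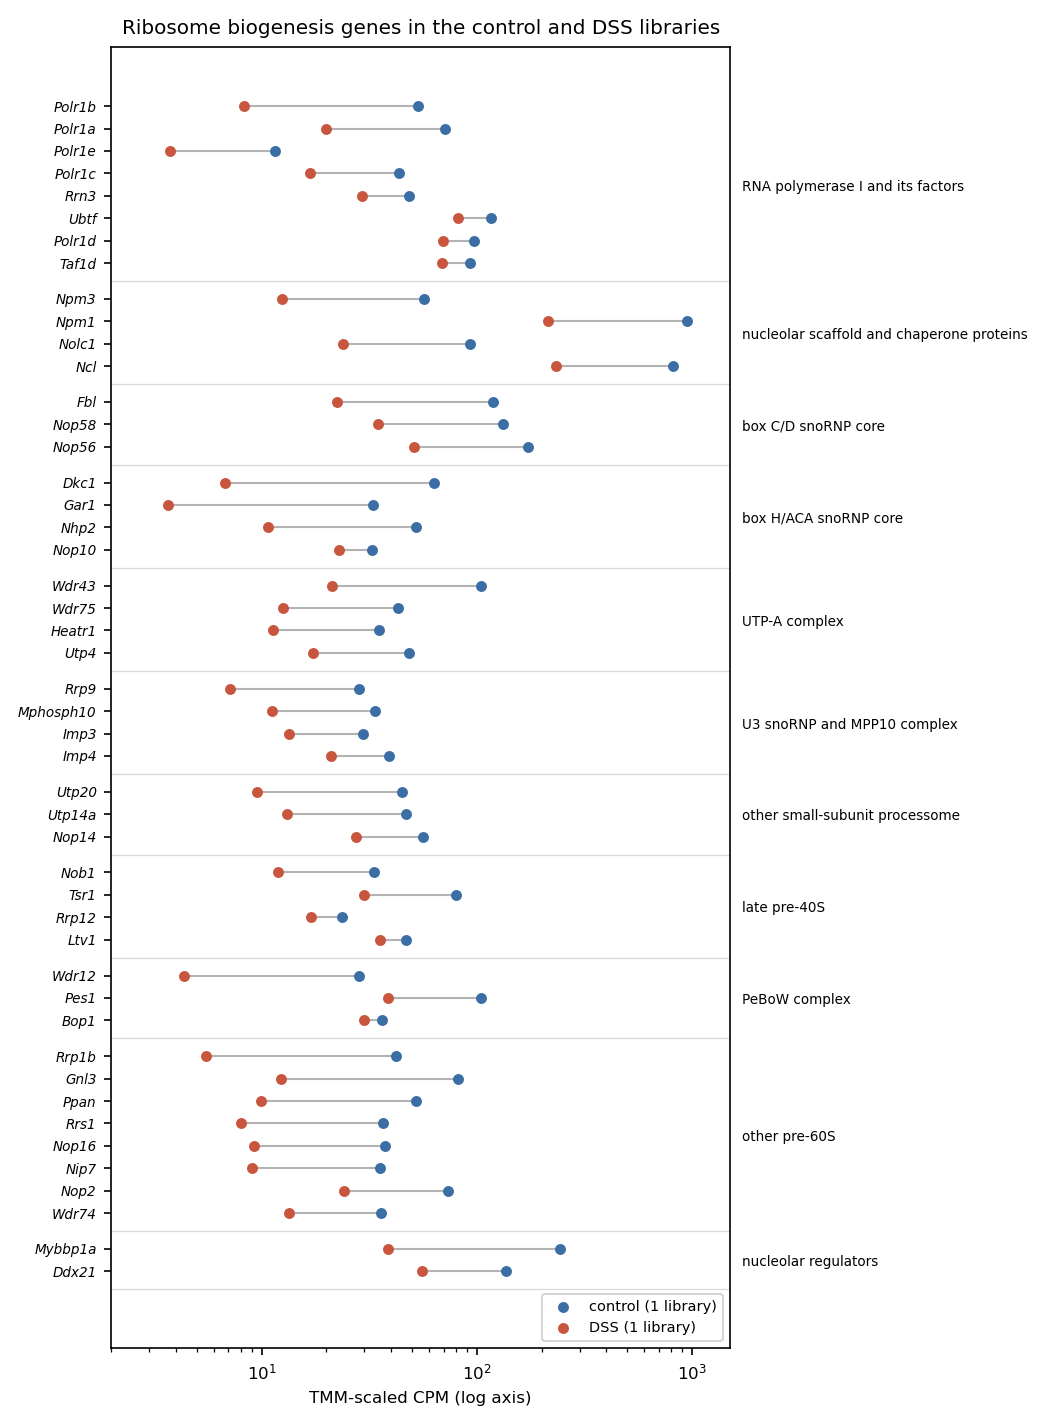
Level of each of the 47 members in the control library (blue) and the DSS library (red), in TMM-scaled CPM on a log axis, sorted by step of ribosome assembly. Each point is 1 library, and the DSS point lies to the left of the control point for every member, with short distances for Bop1, Ltv1 and Taf1d and long ones for Dkc1 and Gar1.

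Transcription of ribosomal DNA needs RNA polymerase I and the factors that bring it to the promoter. The 8 members of this step were all lower in DSS, against 52% of all genes. The median log2 ratio of the 8 members was -1.05, but they spread widely. Polr1b, the second largest subunit of the polymerase, had 3801 counts in the control and 454 in DSS, for a ratio of -2.68 with an interval from -2.82 to -2.54. Polr1a, the largest subunit, had 5083 and 1088 counts, for a ratio of -1.84 (-1.93 to -1.74). Polr1e, a subunit that helps the enzyme start and elongate, had 825 and 205 counts, for a ratio of -1.62 (-1.85 to -1.40). All 3 of these genes encode parts found only in RNA polymerase I.

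Polr1c and Polr1d encode a pair of subunits that RNA polymerase I shares with RNA polymerase III. Polr1c had 3109 counts in the control and 918 in DSS, for a log2 ratio of -1.37 (-1.48 to -1.26). Polr1d had 6962 and 3815 counts, for a ratio of -0.48 (-0.54 to -0.42). The ratio of Polr1d was therefore 0.89 higher than that of its partner, with a counting interval of the difference from 0.77 to 1.01, and such a difference between genes does not depend on the scaling.

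The initiation factors kept more of their control level than Polr1a, Polr1b, Polr1c and Polr1e, though not all of them more than Polr1d. Ubtf, which binds and opens ribosomal DNA, had 8363 counts in the control and 4449 in DSS, for a log2 ratio of -0.52 (-0.57 to -0.47). Rrn3, which links the polymerase to the promoter complex, had 3472 and 1598 counts, for a ratio of -0.73 (-0.82 to -0.65). Taf1d, a subunit of the selectivity factor SL1, had 6627 and 3766 counts, for a ratio of -0.43 (-0.48 to -0.37). These were 3 of the 9 members above -1. The ratio of Taf1d was 2.25 above that of Polr1b (2.10 to 2.40), a pair picked as the highest and lowest of the step once the values were known.

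The remaining genes of the nuclear polymerases were then added, and the ranges of subunits and initiation factors overlapped. Of 6 genes for subunits found only in RNA polymerase I, 5 were at -1 or less, with a median log2 ratio of -1.73. They included Cd3eap, the partner of Polr1e, with 978 and 153 counts and a ratio of -2.29, and Twistnb, a stalk subunit, with 1852 and 515 counts and a ratio of -1.46. The sixth, Znrd1, had 706 and 360 counts and a ratio of -0.58, inside the range of the initiation factors. Of 7 initiation factors, including Taf1a, Taf1b, Taf1c and Tbp, 0 were at -1 or less with TMM, against 20.2% of all genes. Their ratios ran from -0.77 for Taf1b to -0.38 for Tbp. The shift of -0.26 with total counts takes Taf1b past -1. The 5 subunits shared by all of the nuclear polymerases had a median of -0.31, and Polr2l among them was at 0.18 with TMM but at -0.07 with total counts.

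Subunits of the other polymerases had medians of -0.61 over 7 genes found only in RNA polymerase II and of -0.48 over 10 genes found only in RNA polymerase III. Polr2a, the largest subunit of RNA polymerase II, had 11306 counts in the control and 12156 in DSS, for a log2 ratio of 0.49. Among further RNA polymerase I genes, Sirt7, a deacetylase bound at ribosomal DNA, was highest, with 3091 and 4112 counts and a ratio of 0.80. Baz2a, a subunit of the nucleolar remodelling complex, was next at 0.26 with TMM and close to 0, but not below it, with total counts. Over all 15 further RNA polymerase I genes, the median was -0.46, with 12 below 0 and 2 at -1 or less. The 2 genes were 13.3% of the list, against 20.2% of all genes. With total counts the median was -0.71, with 13 below 0 and 4 at -1 or less, against 26.2% of all genes at -1 or less.

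**Figure D2:**
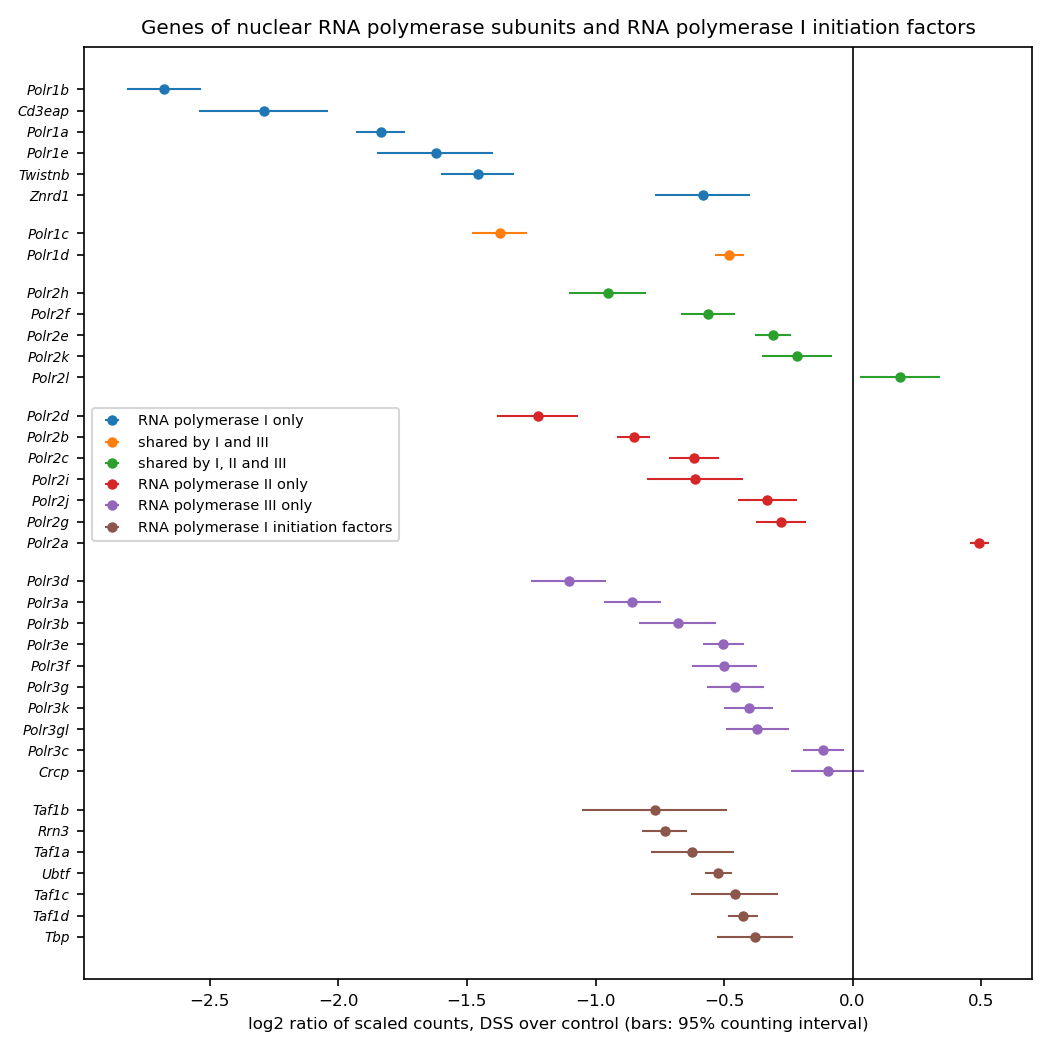
Log2 ratio of scaled counts, DSS over control, for genes of nuclear RNA polymerase subunits by the enzymes that use them and for RNA polymerase I initiation factors, with 1 control and 1 DSS library. Points are genes, bars are 95% counting intervals and the vertical line marks 0. Subunits found only in RNA polymerase I reach from -2.68 to -0.58, while the initiation factors lie between -0.77 and -0.38.

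The abundant proteins of the nucleolus made up the next step, with a median log2 ratio of -2.06 over 4 genes. Npm1, the nucleophosmin chaperone of the outer nucleolus, had 67835 counts in the control and 11642 in DSS, or 948 and 213 CPM, the counts scaled to the library size. The log2 ratio of Npm1 was -2.15 (-2.18 to -2.13). Since 8 annotated pseudogene copies match Npm1 with at least 90% identity, its reads may have been split. Ncl, or nucleolin, which binds the nascent precursor, had 58166 and 12755 counts, or 813 and 233 CPM, for a ratio of -1.80 (-1.83 to -1.77). Npm3, a relative of Npm1, had 4048 and 676 counts and a ratio of -2.19, and Nolc1, which escorts snoRNA particles, had 6683 and 1302 counts and a ratio of -1.97. The ratios of this step stayed close together, as the highest and lowest were 0.39 apart (0.27 to 0.51).

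Box C/D snoRNA particles methylate the ribosomal RNA. All 3 of their core genes in the list were below -1, against 20.2% of all genes, with a median of -1.92. Fbl, or fibrillarin, the methyltransferase itself, had 8512 counts in the control and 1219 in DSS, for a log2 ratio of -2.42 (-2.50 to -2.33). The scaffold proteins Nop58 and Nop56 were less far below the control. Nop58 had 9446 and 1902 counts, for a ratio of -1.92. Nop56, which has 5 annotated pseudogene copies, had 12420 and 2777 counts, for a ratio of -1.77 (-1.83 to -1.71).

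Some of these genes also carry snoRNAs inside their own transcription units. In the GENCODE vM21 annotation of GRCm38, 9 of the 47 members (19.1%) held 31 annotated snoRNA genes on their own strand, against 1.55% of the 15741 tested genes that could be matched to this annotation. The host members were Taf1d with 8 snoRNA genes, Nop56 with 5, Nop58 with 4, Ncl, Wdr43 and Gnl3 with 3 each, Tsr1 and Ppan with 2 each, and Dkc1 with 1. The median log2 ratio was -1.92 for the host members and -1.63 for the rest, and -0.85 for hosts among all genes against -0.08 for all other genes. Levels of the snoRNAs themselves were not measured by these libraries of polyadenylated RNA. A box C/D snoRNA from each of 4 host members is shown because the core proteins of the preceding step form particles with such RNAs. The box C and box D motifs stand in capitals. Snord82 lies within Ncl at chr1:86356261-86356330 on the minus strand, Snord110 within Nop56 at chr2:130275506-130275573 on the plus strand, Snord11 within Nop58 at chr1:59704790-59704873 on the plus strand, and Snord92 within Wdr43 at chr17:71631281-71631365 on the plus strand.
Snord82: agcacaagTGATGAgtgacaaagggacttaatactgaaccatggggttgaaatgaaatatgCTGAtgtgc
Snord110: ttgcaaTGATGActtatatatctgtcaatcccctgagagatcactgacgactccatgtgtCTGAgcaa
Snord11: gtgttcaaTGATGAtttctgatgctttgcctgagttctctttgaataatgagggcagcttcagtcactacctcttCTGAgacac
Snord92: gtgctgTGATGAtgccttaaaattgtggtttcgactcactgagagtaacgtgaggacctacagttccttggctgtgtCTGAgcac

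Box H/ACA particles make pseudouridine, and their core genes held both the lowest ratios of the list and a clear exception. Dkc1, or dyskerin, the pseudouridine synthase, had 4546 counts in the control and 369 in DSS. Its log2 ratio was -3.23 (-3.39 to -3.08), a level 9.41-fold lower. Gar1 had 2348 and 200 counts, for a ratio of -3.16 (-3.38 to -2.96), and Nhp2 had 3745 and 584 counts, for a ratio of -2.29 (-2.42 to -2.17). Dkc1 and Gar1 were the only members at -3 or less.

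Nop10, the smallest of the core proteins, was at 2331 counts in the control and 1254 in DSS, for a log2 ratio of -0.51 (-0.61 to -0.41). Gar1 and Nop10 thus had similar counts in the control, 2348 and 2331, but 200 and 1254 in DSS. The ratio of Nop10 was 2.73 above that of Dkc1 (2.55 to 2.91), the widest gap within any of the 11 steps. This pair was picked as the highest and lowest of the step once the values were known, so its interval is no test. Dkc1, Gar1, Nhp2 and Nop10 encode parts of 1 complex, and in these libraries their message levels did not move together.

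Factors that assemble snoRNA particles, which were not members, had a median log2 ratio of -1.60 over 10 genes. All 10 were below 0 and 8 at -1 or less, against 52% and 20.2% of all genes. Naf1, which holds the place of Gar1 during H/ACA assembly, had 2127 and 248 counts and a ratio of -2.71. Ruvbl1 and Ruvbl2, the ATPases of the assembly machine, were at -2.39 and -2.35. The highest of the list were Nufip1 at -0.87 and Pih1d1 at -0.82. A list of 16 spliced RNA genes known to host snoRNAs had a median of -1.39, with all 16 below 0, from Snhg4 at -3.07 to Snhg3 at -0.90.

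The small-subunit processome forms on the nascent precursor, beginning with the UTP-A complex. Its 4 members were all below -1, against 20.2% of all genes, with a median log2 ratio of -1.71. Wdr43 had 7441 counts in the control and 1164 in DSS, for a ratio of -2.29 (-2.38 to -2.20), and was the lowest of the group. Wdr75 had 3073 and 683 counts, Heatr1 had 2500 and 616, and Utp4 had 3476 and 942, for ratios of -1.78, -1.63 and -1.50. UTP-A proteins are also known for promoting ribosomal DNA transcription, and these ratios lay within 0.79 of each other.

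The U3 snoRNA particle and the MPP10 complex guide the early cleavages, and their 4 genes had a median of -1.37. Rrp9, which binds U3, had 2029 counts in the control and 390 in DSS, for a log2 ratio of -1.99 (-2.15 to -1.83). Mphosph10 had 2395 and 609 counts, for a ratio of -1.59 (-1.72 to -1.46). Imp3 and Imp4, which sit with Mphosph10 in a trimer, were higher, with ratios of -1.15 (-1.27 to -1.03) and -0.89 (-0.99 to -0.79). Imp4 had 2780 and 1143 counts and was among the 9 members above -1.

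The other processome factors were all at or below -1, against 20.2% of all genes. Utp20, a very large scaffold protein, had 3225 counts in the control and 519 in DSS, for a log2 ratio of -2.25 (-2.38 to -2.11). Utp14a, which activates a processome helicase, had 3350 and 715 counts, for a ratio of -1.84 (-1.96 to -1.72). Nop14 had 4010 and 1495 counts and lay at the line, with a ratio of -1.03 and an interval from -1.12 to -0.95 that reached above -1.

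Late factors of the small subunit gave the median nearest to 0, -0.95 over 4 genes, and formed separate pairs. Nob1, the nuclease that makes the final cut of 18S ribosomal RNA, had 2371 counts in the control and 652 in DSS, for a log2 ratio of -1.47 (-1.60 to -1.35). Tsr1, a GTPase-like factor of the immature particle, had 5715 and 1626 counts, for a ratio of -1.42 (-1.50 to -1.34). The export factors were closer to the control. Rrp12 had 1692 and 929 counts, for a ratio of -0.48 (-0.59 to -0.36), and Ltv1 had 3364 and 1939 counts, for a ratio of -0.41 (-0.49 to -0.33).

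The exons of Tsr1 overlap those of Srr on the opposite strand over 1240 bases, or 32.3% of the Tsr1 exons in GENCODE vM21, and Srr had 1440 counts in the control and 3091 in DSS. For Utp14a, 11.5% of exon bases overlap a noncoding gene with at most 11 counts. The strand setting used for counting was not given in the sources used here, so reads of such pairs may not be separated.

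Across 40 further small-subunit factors, 40 were below 0 and 24 at -1 or less, against 52% and 20.2% of all genes. The factors had a median log2 ratio of -1.14. The lowest were Rcl1 at -2.26, Nat10, the RNA acetyltransferase, at -2.05, and Pwp2 at -1.95. The highest were Ngdn at -0.31, Riok1, a kinase of late pre-40S particles, at -0.27, and Bud23, which methylates 18S ribosomal RNA, at -0.20.

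**Figure D3:**
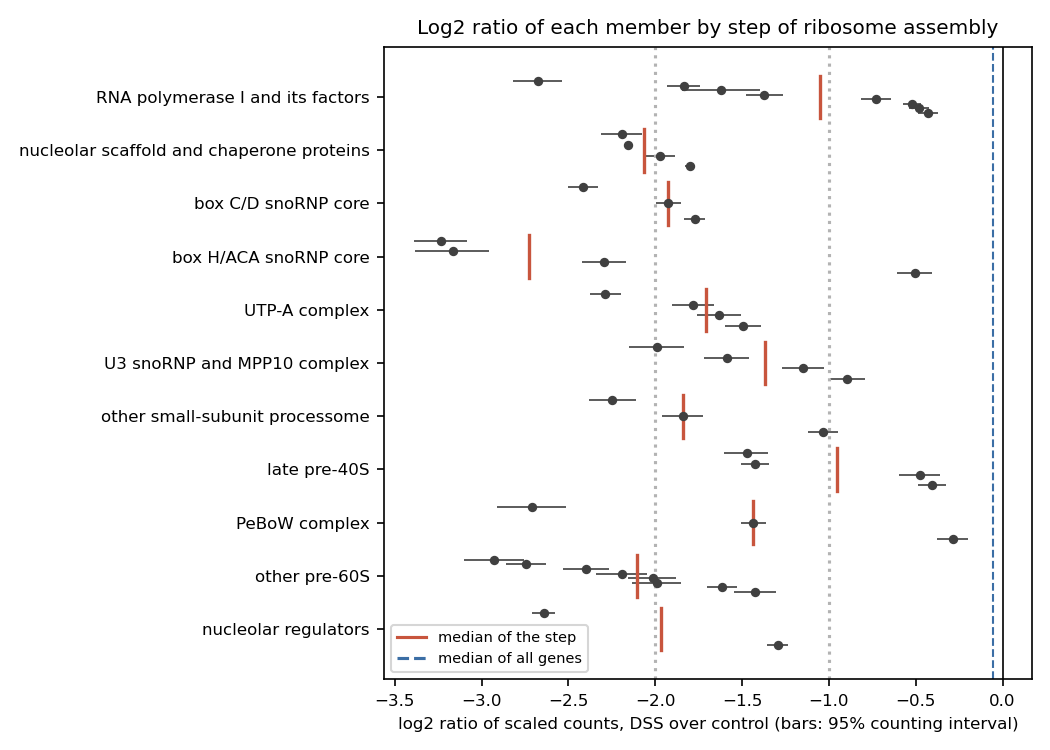
Log2 ratio of scaled counts, DSS over control, for the 47 members by step of ribosome assembly, from 1 library per condition. Points are genes with 95% counting intervals as bars, red marks are the median of each step, the blue dashed line is the median of all genes and dotted lines mark -1 and -2. The medians run from -2.73 for the box H/ACA core to -0.95 for late pre-40S factors.

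For the large subunit, the PeBoW complex, which joins Pes1, Bop1 and Wdr12 and is needed for processing of the internal spacer, held another wide spread. Wdr12 had 2029 counts in the control and 237 in DSS, for a log2 ratio of -2.71 (-2.91 to -2.51). Pes1 had 7510 and 2123 counts, for a ratio of -1.43 (-1.50 to -1.36). Bop1 had 2598 and 1627 counts, for a ratio of -0.29 (-0.38 to -0.20), the highest of all members. The ratio of Bop1 stood 2.42 above that of Wdr12 (2.21 to 2.64), again a pair picked as highest and lowest once the values were known. In the DSS library the 3 messages of this complex were present in other proportions than in the control library.

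The other 8 pre-60S factors were all at -1 or less and 5 were at -2 or less, against 20.2% and 6.54% of all genes. The median log2 ratio of the 8 factors was -2.10. Rrp1b, a partner of the processing machinery and of a nuclear phosphatase, had 3009 counts in the control and 302 in DSS, for a ratio of -2.93 (-3.10 to -2.76). Gnl3, or nucleostemin, a nucleolar GTPase known from stem cells and tumours, had 5873 and 670 counts, for a ratio of -2.74 (-2.86 to -2.63). Ppan had 3723 and 540 counts, for a ratio of -2.40 (-2.53 to -2.27). These 3 genes kept less than 20% of their control level, at 13.1%, 14.9% and 19.0%.

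Rrs1, which helps to place the 5S particle, had 2616 counts in the control and 437 in DSS, for a log2 ratio of -2.19 (-2.34 to -2.05). Nop16 had 2678 and 506 counts, and Nip7 had 2551 and 491, for ratios of -2.02 and -1.99. Their intervals, from -2.15 to -1.88 and from -2.13 to -1.85, both contained -2. The smallest differences of the step were those of Nop2, a methyltransferase of 28S ribosomal RNA, with 5274 and 1315 counts and a ratio of -1.62, and of Wdr74, with 2575 and 732 counts and a ratio of -1.43.

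Across 51 further large-subunit factors, 48 were below 0 and 31 at -1 or less, against 52% and 20.2% of all genes. The factors had a median of -1.25. Nle1 had 1128 counts in the control and 102 in DSS, for a log2 ratio of -3.08, Lyar had 3249 and 338 counts, for a ratio of -2.88, and Rrp15 was at -2.69. The only 3 above 0 were Efl1, Sbds and Eif6, under TMM and under each of the other scalings tried. Eif6 had 6270 and 8234 counts and a ratio of 0.78, Sbds had 3162 and 3470 and a ratio of 0.52, and Efl1 had 3871 and 3680 and a ratio of 0.32. These proteins act together in the cytoplasm at the last step of 60S maturation, in which Efl1 and Sbds remove Eif6 from the new subunit.

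Ddx21 and Mybbp1a, nucleolar proteins that modulate polymerase I transcription and other nuclear events, completed the list. Mybbp1a had 17353 counts in the control and 2123 in DSS, for a log2 ratio of -2.64 (-2.71 to -2.58). Ddx21, an RNA helicase, had 9750 and 3035 counts, for a ratio of -1.30 (-1.35 to -1.24). The 2 ratios differed by 1.35 (1.26 to 1.43).

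Most exosome and nuclease genes were lower as well, with 16 of 18 below 0 and 11 at -1 or less, against 52% and 20.2% of all genes. The list had a median log2 ratio of -1.11. Exosc8 was at -2.56, Exosc2 at -2.40 and Dis3 at -2.37. Above 0 were C1d, an exosome cofactor, at 0.28, and Lactb2, a mitochondrial nuclease, at 0.26. These 2 ratios came close to 0 with total counts but did not turn negative.

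Ribosomal proteins, which the factors above join to the ribosomal RNA, were compared as a list. Below 0 were all 79 cytosolic ribosomal protein genes, 75 of them at -1 or less, with a median log2 ratio of -1.46, from Rpl12 at -2.17 to Fau at -0.40. Their summed counts were 6546069 in the control and 1826523 in DSS. Their range was narrower than that of the 47 members. Of 78 mitochondrial ribosomal protein genes, which build a separate ribosome, 67 were below 0 and 10 at -1 or less with TMM, and 75 and 18 with total counts. Their median with TMM was -0.56. The 10 genes at -1 or less were 12.8% of this list, against 20.2% of all genes. Of all genes, 52% were below 0 with TMM. With total counts, 61.5% of all genes were below 0 and 26.2% at -1 or less.

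**Figure D4:**
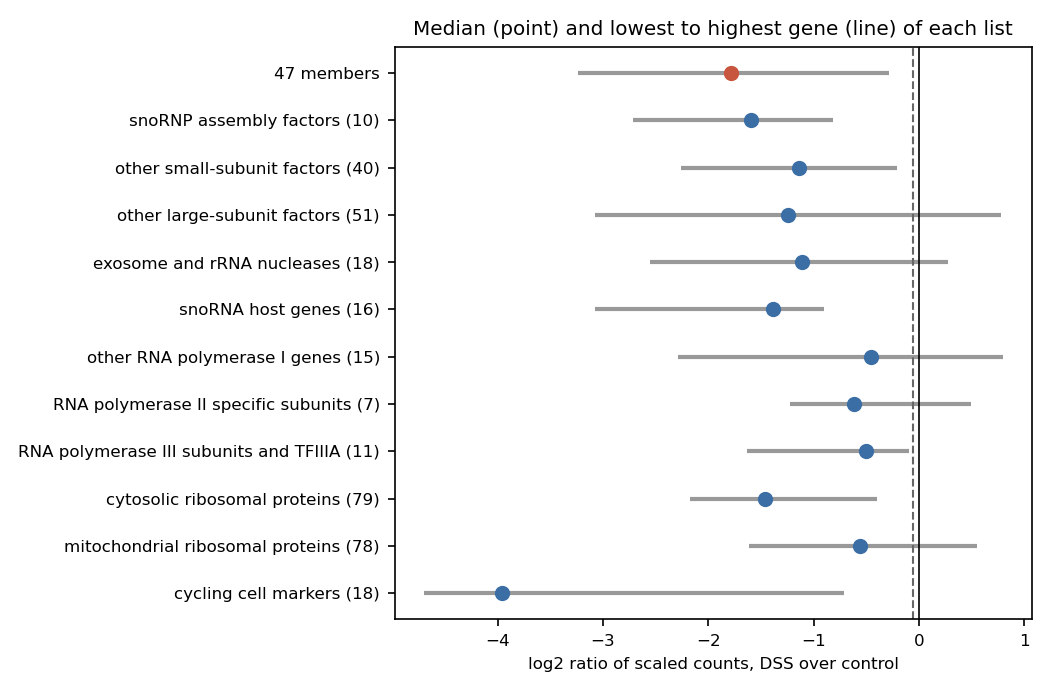
Median log2 ratio (point) and lowest to highest gene (line) of the 47 members (red) and of companion gene lists (blue), with the number of genes in parentheses, for 1 control and 1 DSS library. The solid line marks 0 and the dashed line the median of all genes, -0.06. The members lie at -1.78, cytosolic ribosomal proteins at -1.46, mitochondrial ribosomal proteins at -0.56 and cycling cell markers at -3.96.

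Markers of cell division and of cell type moved in the same libraries. Of 18 cycling cell markers, all 18 were below 0 and 17 at -2 or less, against 52% and 6.54% of all genes. The markers had a median log2 ratio of -3.96 and summed counts of 163465 in the control and 17143 in DSS. Pcna, a replication factor, was the highest at -0.71. All 5 crypt base stem cell markers were below 0, with a median of -4.26, and all 7 enterocyte markers were above 0, with a median of 3.94. The part of these shifts in the lower levels of the 47 members was not tested.

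Promoter sequence was examined for what the members share apart from function. In a RefSeq table of GRCm38.p6, 42 of the 47 members had a promoter, and the 250 bases before the start were searched on both strands, beside those of 12293 tested genes. The E-box CACGTG, the preferred site of MYC and MAX, was present in 3 members (7.14%), against 9.45% of all genes. The ETS motif CCGGAAG was present in 11 members (26.2%), against 14.0%, and the GC box GGGCGG in 26 (61.9%), against 59.0%. The YY1 motif AAGATGG was found in 2 members and the NRF1 motif GCGCATGC in 1, or 4.76% and 2.38%, against 5.12% and 4.41% of all genes. Median GC content was 56.4% for the members and 59.2% for all genes. These are matches of letters in a short window, and sites elsewhere in the genes were not searched.

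The members with an E-box in the window were Nop2, Rrn3 and Imp4, which act at different steps and were at -1.62, -0.73 and -0.89. Their 250 upstream bases are shown because MYC, considered next, binds this motif, and each E-box stands in capitals. The Nop2 window is chr6:125131633-125131882, the Rrn3 window chr16:13780449-13780698 and the Imp4 window chr1:34439579-34439828, all on the plus strand of GRCm38.p6. The site begins 60 bases before the start in Nop2 and 121 bases before it in Imp4, and Rrn3 has sites at 215 and 48 bases.
Nop2: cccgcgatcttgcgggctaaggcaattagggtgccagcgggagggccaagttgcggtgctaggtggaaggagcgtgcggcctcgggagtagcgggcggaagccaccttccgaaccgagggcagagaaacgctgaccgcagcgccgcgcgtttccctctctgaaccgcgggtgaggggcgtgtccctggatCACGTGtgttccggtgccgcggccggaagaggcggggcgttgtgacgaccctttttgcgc
Rrn3: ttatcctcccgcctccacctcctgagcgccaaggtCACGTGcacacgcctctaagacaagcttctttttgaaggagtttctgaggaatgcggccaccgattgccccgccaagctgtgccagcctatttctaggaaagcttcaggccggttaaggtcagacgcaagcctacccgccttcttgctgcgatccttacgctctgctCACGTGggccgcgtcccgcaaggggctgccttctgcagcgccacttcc
Imp4: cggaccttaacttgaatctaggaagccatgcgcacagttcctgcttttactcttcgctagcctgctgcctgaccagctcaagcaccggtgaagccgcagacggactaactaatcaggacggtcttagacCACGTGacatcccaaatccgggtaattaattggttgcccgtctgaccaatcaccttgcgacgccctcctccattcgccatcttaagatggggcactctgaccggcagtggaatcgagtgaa

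Genes of the MYC network went in both directions, with 6 of 12 below 0 and 6 above and a median log2 ratio of -0.01 that moved to -0.27 with total counts and to 0.08 with upper quartile factors. Myc itself had 5101 counts in the control and 994 in DSS, for a ratio of -1.97 (-2.07 to -1.87). Mycl, a relative, had 2067 and 593 counts and a ratio of -1.41. Mxd1, which competes with MYC for the partner MAX and represses its targets, had 1335 and 10932 counts, for a ratio of 3.42 (3.34 to 3.51). Mxd4 was at 1.80, whereas Mxd3, a family member known from dividing cells, had 250 and 16 counts and a ratio of -3.58 (-4.41 to -2.85). So the MXD genes moved apart, and whether any of these levels bears on the 47 members was not tested.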

How the data were processed

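The authors deposited raw counts per gene, not normalized, for 1 control and 1 DSS library. The deposited files for the single samples, named as FPKM, hold the same counts. The submitters' processing notes name HISAT2 and StringTie. The genome build, annotation and strand setting of the counting are not given in the sources used here. The table holds no gene with a count of 0, so genes silent in either library are missing.

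Members, lists, steps and motifs were chosen with earlier results of these data known. Counts were scaled with TMM in edgeR 4.0.16 (R 4.3.3), and a gene needed 10 counts or more in the control or in DSS to enter gene counts and medians. Exact 95% Clopper-Pearson intervals condition on the summed count, and intervals of differences between genes are Wald intervals. A count of 0 would be set to 3, and none occurred among the genes. All members are named, and of companion lists the 3 lowest and 3 highest genes with 50 counts or more in the control or in DSS, or some of these. Rrn3, Nop2 and Imp4 are all members with an E-box. DESeq2 1.42.0, Python 3.11.15, numpy 2.4.6, scipy 1.17.1, pandas 2.3.3 and matplotlib 3.10.9 were used. Pseudogene copies of the members were sought among GENCODE vM21 transcripts with minimap2 2.31. The computation was tested on simulated counts.

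Promoter sequences are from RefSeq and snoRNA sequences from the GENCODE vM21 genome. Protein sequences were not used here. A planned gene of a companion list is not reported here.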

Additional observations from a re-analysis of the deposited data

How the results depend on the processing

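With total counts in place of TMM, the median log2 ratio of the members was -2.04, 25 members were at -2 or less and their summed level was at -1.95, while 61.5% of all genes were below 0, 26.2% at -1 or less and 8.83% at -2 or less. With upper quartile factors, the median was -1.69 and the summed level -1.60, with 48.7% of all genes below 0. Centring on the median of all genes put the summed level at -1.64, and it was -1.48 without Npm1, Ncl and Mybbp1a. Of the members, 15 have 31 pseudogene copies annotated in GENCODE vM21, with at least 90% identity over at least 200 bases. Npm1 has 8, Nop56 has 5, Rrs1 has 3, and Fbl, Wdr12 and Pes1 have 2 each, so reads may be split. Without these 15 members, an alternative chosen after seeing the data, 24 of 32 were at -1 or less, against 20.2% of all genes. Their median was -1.63. Leaving out Tsr1 and Utp14a, also chosen after seeing the data, gave -1.78. DESeq2 size factors, a prior count of 2, thinning and other minimums kept each median of the members within a set range. That range ran from the median lower bound to the median upper bound of the single-gene intervals. Each count of members stayed within 1.5 times its main value. Over all settings no member changed sign, with values from -3.49 to -0.20. No paired analysis was possible because each condition has 1 library, and no replicate could be left out. Depth did not limit the members, whereas variation between cultures was not measured.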
